A study of Mus musculus with 22 samples.

Results

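A set of 10 genes of iron and zinc handling was followed in mouse alveolar macrophages and mammary cells grown together or alone. The genes were Slc11a1, Slc11a2, Slc40a1, Tfrc, Fth1, Ftl1, Hmox1, Mt1, Mt2 and Slc30a1, which are 10 of the 32544 gene symbols in the count tables, and all 10 were found in the tables of both experiments. They were chosen by symbol as metal handling genes of macrophages, with the lower Slc11a1 and the higher Mt2 of co-cultured macrophages already known from these data. The values of the 10 genes in co-cultured against mono-cultured macrophages are therefore given as a description, with no test.

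Macrophages take up transferrin-bound iron through Tfrc, the transferrin receptor, and move ferrous iron out of endosomes through Slc11a2 (DMT1) and out of phagosomes through its relative Slc11a1 (NRAMP1). Iron is stored in shells built of the ferritin heavy chain Fth1 and light chain Ftl1, freed from heme by the heme oxygenase Hmox1 and exported by ferroportin, the product of Slc40a1. Metallothioneins, the products of Mt1 and Mt2, are small cysteine-rich proteins that bind zinc and copper, and Slc30a1 (ZnT1) exports zinc from the cell.

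The 22 bulk RNA libraries fell into 8 groups. In the early lesion experiment these were alveolar macrophages after co-culture with early lesion cells (2 libraries), alveolar macrophages in mono-culture (2), early lesion cells after co-culture with the macrophages (3) and early lesion cells in mono-culture (3). The primary tumor experiment had the same 4 groups with primary tumor cells, at 3 libraries each. The mammary cells were from MMTV-HER2 mice, in which the mouse mammary tumor virus promoter drives the HER2 transgene, and the macrophages were from wildtype FVB mice. Co-culture lasted 7 days, and all groups shared Matrigel and a medium with 5% horse serum, insulin, EGF and 500 ng/ml of the steroid hydrocortisone. Cells were sorted by flow cytometry, and the sources used here do not state the gate. The labels call the replicates biological without naming the animals behind them, so p-values measure the spread between these libraries, which may in part be technical.

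Libraries held 19.7 to 43.7 M counts. In the 6 macrophage libraries of the primary tumor experiment 65.7 to 78.6% of counts fell on mitochondrially encoded genes, against 2.86 to 3.53% in the other 16, and 4.65 to 6.03 M counts remained there outside those genes and Grip2, a gene with 12.9% of counts in replicate 1 of the mono-cultured macrophages. Levels set across groups are therefore CPM of the counts outside these genes, called other CPM. The 12 macrophage markers summed to 51644 to 60735 other CPM in macrophages of the early lesion experiment, to 16359 to 22398 in macrophages of the primary tumor experiment and to 6.32 to 70.3 in mammary cells, and none was at 0 in macrophages. The 12 epithelial markers summed to 9132 to 13092 other CPM in mammary cells. Their sum in macrophages, as a share of the mammary sum, was 3.52% in co-culture and 1.66% in mono-culture of the early lesion experiment, and 2.73% in co-culture and 0.653% in mono-culture of the primary tumor experiment. In bulk samples, fewer cells of a type and less RNA per cell cannot be told apart.

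Iron regulatory proteins bind a hairpin called the iron-responsive element when iron is scarce, which blocks translation from a 5′ untranslated region and protects an mRNA from decay from a 3′ untranslated region. Its letters were searched in GENCODE M21 transcripts (GRCm38, mm10) as C, 5 bases, CAGTG, then A, C or T, and 5 bases that pair with the first 5, G-U pairs included. An element with other letters or an unpaired base would be missed, so a gene without a match may still hold an element. A match was found in 222 of 21877 protein-coding genes (1.01%), of which 1, Tfrc, had more than 2, and in 4 of the 10 genes. These sites are shown because they set Fth1, Ftl1 and Slc40a1, with 1 site each in the 5′ untranslated region, apart from Tfrc, with 4 in the 3′ untranslated region. Capitals mark the loop of 6 bases. They lie at chr19:9982738-9982754 (plus strand) for Fth1, chr7:45459785-45459801 (minus) for Ftl1, chr1:45925471-45925487 (minus) for Slc40a1, and chr16:32631225-32631241, chr16:32631604-32631620, chr16:32631669-32631685 and chr16:32631716-32631732 (plus) for Tfrc.
Fth1: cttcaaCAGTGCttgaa
Ftl1: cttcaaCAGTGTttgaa
Slc40a1: cagctaCAGTGTtagct
Tfrc site 1: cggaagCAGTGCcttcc
Tfrc site 2: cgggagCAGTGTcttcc
Tfrc site 3: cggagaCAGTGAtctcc
Tfrc site 4: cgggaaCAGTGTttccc

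The zinc-sensing factor MTF1 binds metal response elements, whose core was searched as TGCACNC and TGCGCNC on both strands in RefSeq windows (GRCm38.p6) of 250 bases before to 50 bases after a gene start. Of 32851 windows, 25.7% held a match, 7.11% held 2 or more and 1.97% held 3 or more. Windows were at hand for 7 of the 10 genes. Mt2 had 4 matches, Mt1 had 3 and Slc30a1 had 2, while Tfrc had 2 that overlap each other in 1 of its 2 windows, and Slc11a1, Ftl1 and Fth1 had none. The 250 bases before the start are shown for Mt2 (chr8:94172368-94172617), Mt1 (chr8:94178839-94179088) and Slc30a1 (chr1:191906531-191906780), all on the plus strand, since Mt1 and Mt2 were higher together in co-cultured macrophages while the Slc30a1 groups overlapped. Capitals mark the matches before the start, 3 in Mt2, 1 in Mt1 and 1 in Slc30a1. A match describes the letters only.
Mt2: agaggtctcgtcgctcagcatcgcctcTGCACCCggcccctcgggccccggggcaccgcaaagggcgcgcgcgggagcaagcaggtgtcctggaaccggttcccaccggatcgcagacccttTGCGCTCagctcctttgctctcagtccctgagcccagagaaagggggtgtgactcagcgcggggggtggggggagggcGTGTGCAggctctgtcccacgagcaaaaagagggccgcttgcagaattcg
Mt1: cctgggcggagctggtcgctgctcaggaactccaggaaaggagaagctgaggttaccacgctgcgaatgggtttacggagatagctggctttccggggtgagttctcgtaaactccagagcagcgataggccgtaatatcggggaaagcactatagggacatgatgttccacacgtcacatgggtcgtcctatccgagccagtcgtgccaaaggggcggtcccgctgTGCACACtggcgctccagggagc
Slc30a1: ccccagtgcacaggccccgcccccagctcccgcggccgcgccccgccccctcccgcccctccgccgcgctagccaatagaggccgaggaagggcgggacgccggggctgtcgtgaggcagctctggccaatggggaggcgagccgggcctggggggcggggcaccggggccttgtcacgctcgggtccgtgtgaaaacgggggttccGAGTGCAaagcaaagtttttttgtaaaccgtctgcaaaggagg

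In macrophages the divalent metal transporter Slc11a1 was lower in co-culture in both experiments. It had 64.2 and 68.1 CPM in macrophages with early lesion cells, against 173 and 172 CPM in mono-culture (CPM normalized by TMM within each comparison). In macrophages with primary tumor cells it had 2.46, 4.77 and 3.64 CPM, from 55, 91 and 75 counts, against 26.6, 21.03 and 18.7 CPM, from 565, 555 and 531 counts, in mono-culture. Every co-culture library was below every mono-culture library of its experiment, and the log2 fold changes were -1.38 ± 0.07 (SE) with early lesion cells and -2.62 ± 0.21 with primary tumor cells. Slc11a1 lies at chr1:74375195-74386062 on the plus strand. Co-cultured mammary cells held little of it, 0.636 other CPM in early lesion cells and 0.419 in primary tumor cells, against 68.6 and 14.7 in the macrophages grown with them.

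Slc11a2, the endosomal relative of Slc11a1 (chr15:100387898-100425072, minus strand), was also lower. It had 26.9 and 27.9 CPM in macrophages with early lesion cells, against 44.8 and 51.7 CPM in mono-culture, and 2.15, 2.83 and 2.28 CPM with primary tumor cells, against 4.80, 4.77 and 4.09 CPM in mono-culture. The values with primary tumor cells came from 48, 54 and 47 counts, against 102, 126 and 116 counts in mono-culture. Neither pair of groups overlapped, and the log2 fold changes were -0.82 ± 0.09 and -0.91 ± 0.19. Exons of Slc11a2 overlap those of Gm5475 on the opposite strand, and because no strand setting of the counts is known, their reads cannot be told apart.

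Tfrc, the entry point of transferrin iron (chr16:32608920-32632794, plus strand), had 41.6 and 40.7 CPM in macrophages with early lesion cells, against 49.7 and 50.9 CPM in mono-culture. It had 1.93, 2.10 and 2.18 CPM in macrophages with primary tumor cells, against 6.59, 4.85 and 3.6004 CPM in mono-culture. These came from 43, 40 and 45 counts, against 140, 128 and 102 counts. The co-culture libraries were again the lower ones without overlap, with log2 fold changes of -0.29 ± 0.07 and -1.27 ± 0.23. Mammary cells held 4.94 times (early lesion) and 35.1 times (primary tumor) the Tfrc of the macrophages grown with them by other CPM.

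The exporter gene Slc40a1 (chr1:45908068-45926523, minus strand) was scarce in macrophages. It had 2.44 and 2.20 CPM with early lesion cells, against 1.70 and 2.31 CPM in mono-culture, and 0.627, 0.786 and 0.388 CPM with primary tumor cells, against 0.706, 0.455 and 0.459 CPM in mono-culture. The values with primary tumor cells came from only 14, 15 and 8 counts, against 15, 12 and 13 counts in mono-culture. The groups overlapped in both experiments, and the log2 fold changes were 0.20 ± 0.28 and 0.17 ± 0.44. Mammary cells held 19.4 times (early lesion) and 8.49 times (primary tumor) as much as the macrophages grown with them. The part of mammary RNA in the macrophage values was not tested.

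The ferritin chains were the most abundant of the 10 genes. Fth1 (chr19:9980598-9985098, plus strand) had 18961 and 19499 CPM in macrophages with early lesion cells, against 19614 and 20631 CPM in mono-culture, and 10112, 9327 and 8627 CPM with primary tumor cells, against 7346, 8449.6 and 8875 CPM in mono-culture. Its log2 fold changes were small, at -0.07 ± 0.06 without overlap and 0.19 ± 0.12 with overlapping groups. Ftl1 (chr7:45457944-45459884, minus strand) had 13359 and 14638 CPM with early lesion cells, against 15406 and 14359.5 CPM in mono-culture, and 4290.1, 3912 and 4002 CPM with primary tumor cells, against 2999.7, 3592 and 4071 CPM in mono-culture. Its groups overlapped in both experiments, with log2 fold changes of -0.09 ± 0.06 and 0.19 ± 0.13. Ferritin values are uncertain to the extent that reads are shared with ferritin copies such as Fth-ps2 and Ftl2-ps, and exons of Ftl1 overlap those of Gm10252 and Gm22133.

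Hmox1, which frees iron from heme (chr8:75093621-75100589, plus strand), had 231 and 224 CPM in macrophages with early lesion cells, against 204 and 186 CPM in mono-culture, and was higher without overlap (0.22 ± 0.07). It had 49.0, 44.7 and 49.7 CPM with primary tumor cells, against 51.0, 46.8 and 43.6 CPM in mono-culture, and these groups overlapped (0.02 ± 0.09).

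**Figure D1:**
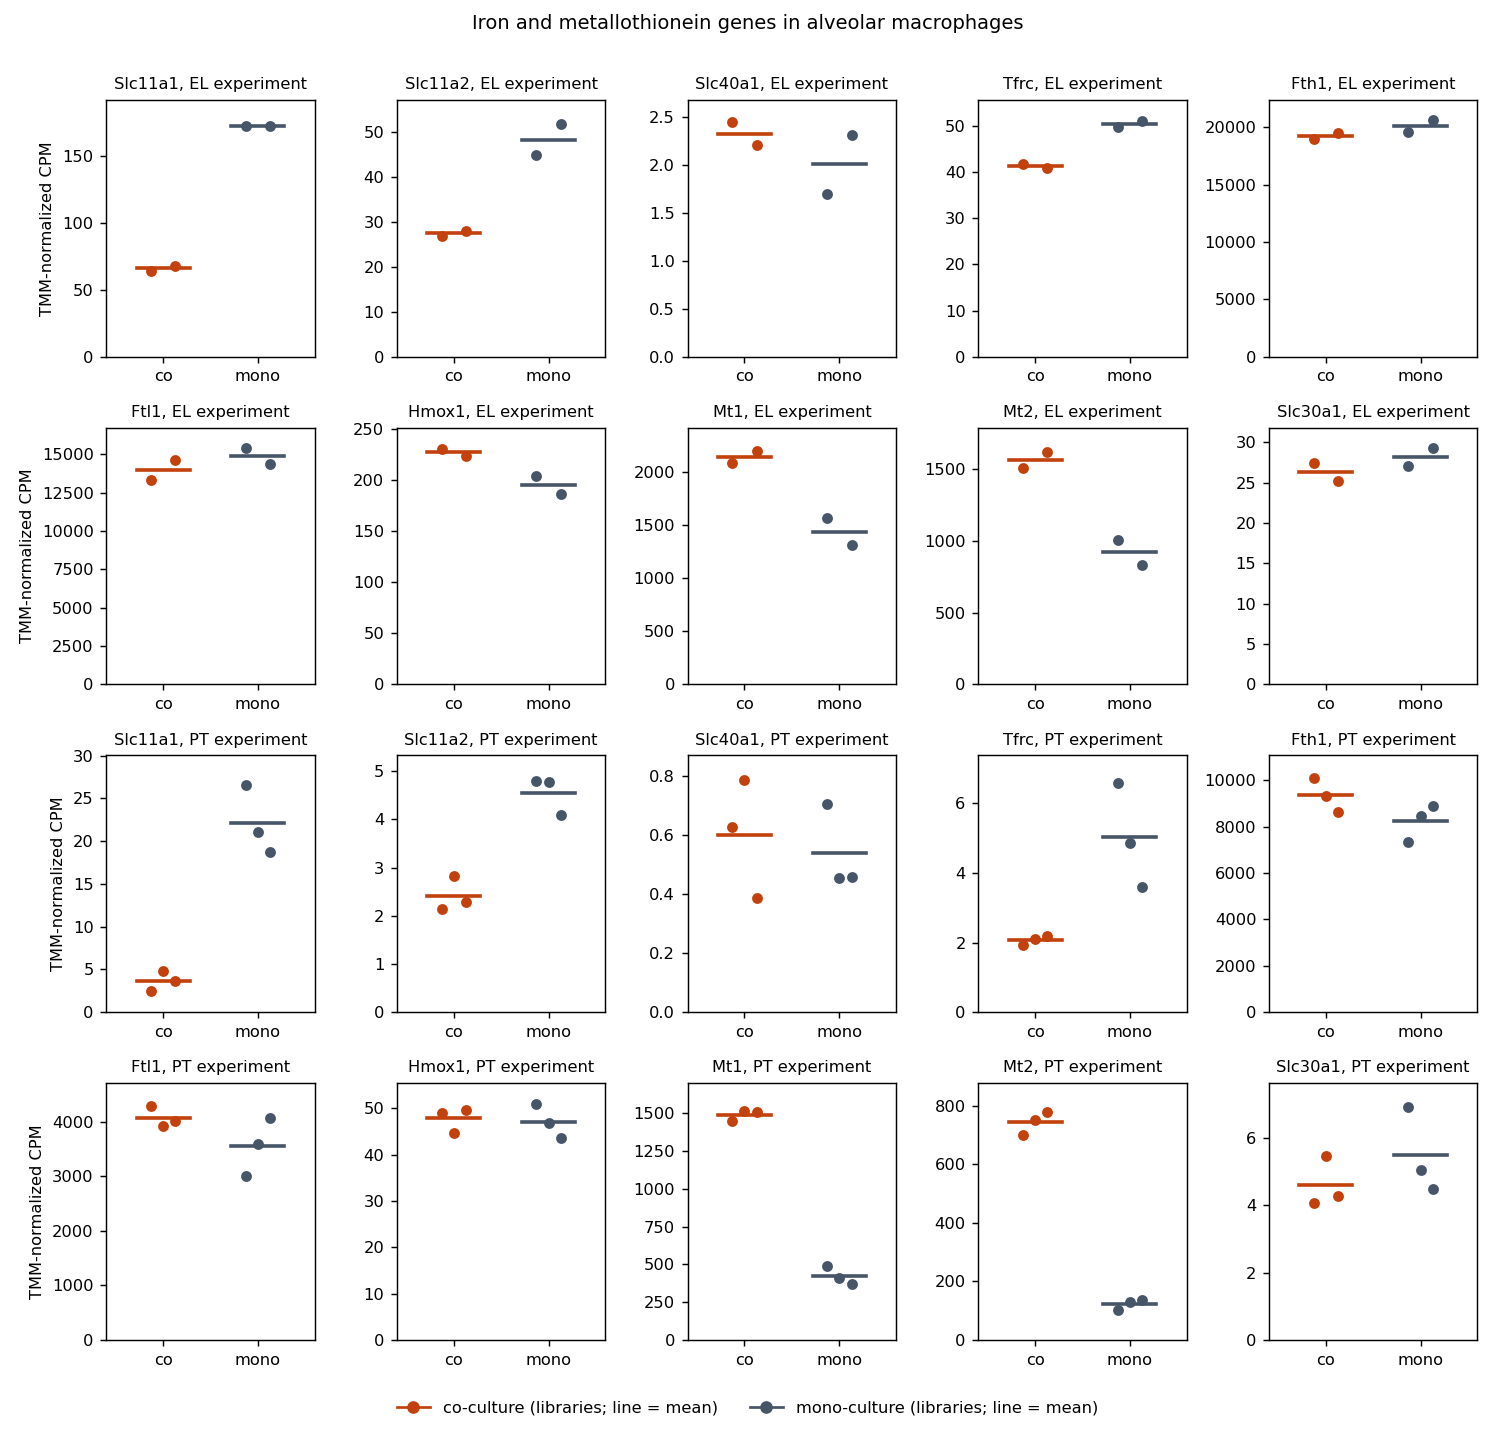
TMM-normalized CPM (y axes, from 0) of the 10 genes in macrophages in co-culture and mono-culture of the early lesion and the primary tumor experiments, drawn separately because mitochondrially encoded genes took 65.7 to 78.6% of counts in the macrophages of the primary tumor experiment; points are libraries and lines are means. Slc11a1, Slc11a2 and Tfrc are lower and Mt1 and Mt2 are higher in every co-culture library than in every mono-culture library of the same experiment.

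The metallothioneins were higher in co-cultured macrophages, with the larger fold changes beside primary tumor cells. Mt2 (chr8:94172664-94173568, plus strand) had 1512 and 1619 CPM with early lesion cells, against 1010.4 and 833 CPM in mono-culture, and 701, 753 and 779 CPM with primary tumor cells, against 102, 131 and 137 CPM in mono-culture. The lowest co-culture library was above the highest mono-culture library in both, and the log2 fold changes were 0.76 ± 0.09 and 2.59 ± 0.13. Exons of Mt2 overlap those of Gm45774 on the opposite strand.

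Mt1, close to Mt2 at chr8:94179082-94180327 on the same strand, had 2089 and 2196 CPM with early lesion cells, against 1564 and 1313 CPM in mono-culture, and 1446, 1514 and 1504 CPM with primary tumor cells, against 487, 413 and 372 CPM in mono-culture. Its groups did not overlap either, and the log2 fold changes were 0.57 ± 0.08 and 1.81 ± 0.12. The ratio of Mt2 to Mt1 counts was 0.724 and 0.737 in macrophages with early lesion cells, against 0.646 and 0.635 in mono-culture, and 0.485, 0.497 and 0.518 with primary tumor cells, against 0.209, 0.317 and 0.369 in mono-culture. The ratio was higher in every co-culture library of its experiment, in the libraries on whose values Mt2 was chosen. Mammary cells in the same dishes held less of both genes, at 0.0805 and 0.0229 times the macrophage Mt1 and 0.107 and 0.0336 times the macrophage Mt2 by other CPM.

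Slc30a1, the zinc exporter (chr1:191906767-191913247, plus strand), had 27.5 and 25.2 CPM in macrophages with early lesion cells, against 27.1 and 29.3 CPM in mono-culture. It had 4.08, 5.45 and 4.27 CPM with primary tumor cells, against 6.92, 5.04 and 4.48 CPM in mono-culture. The groups overlapped in both experiments, with log2 fold changes of -0.10 ± 0.09 and -0.25 ± 0.19. Exons of Slc30a1 overlap those of 1700034H15Rik on the opposite strand.

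Counted over the 10 genes, co-culture and mono-culture libraries did not overlap for 7 in macrophages with early lesion cells, 3 higher and 4 lower, where 59.2% of 14032 genes did not overlap (29.3% higher, 29.9% lower) and 18.3% passed an adjusted p of 0.05 (9.11% higher, 9.19% lower). In macrophages with primary tumor cells it was 5, 2 higher and 3 lower, where 45.0% of 11121 genes did not overlap (23.2% higher, 21.8% lower) and 30.6% passed (15.8% higher, 14.8% lower). These contrasts chose the genes, so nothing is read from the counts. Leaving the mitochondrially encoded genes and Grip2 out before normalization gave log2 fold changes of -2.63 for Slc11a1 and 2.58 for Mt2 in macrophages with primary tumor cells.

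**Figure D2:**
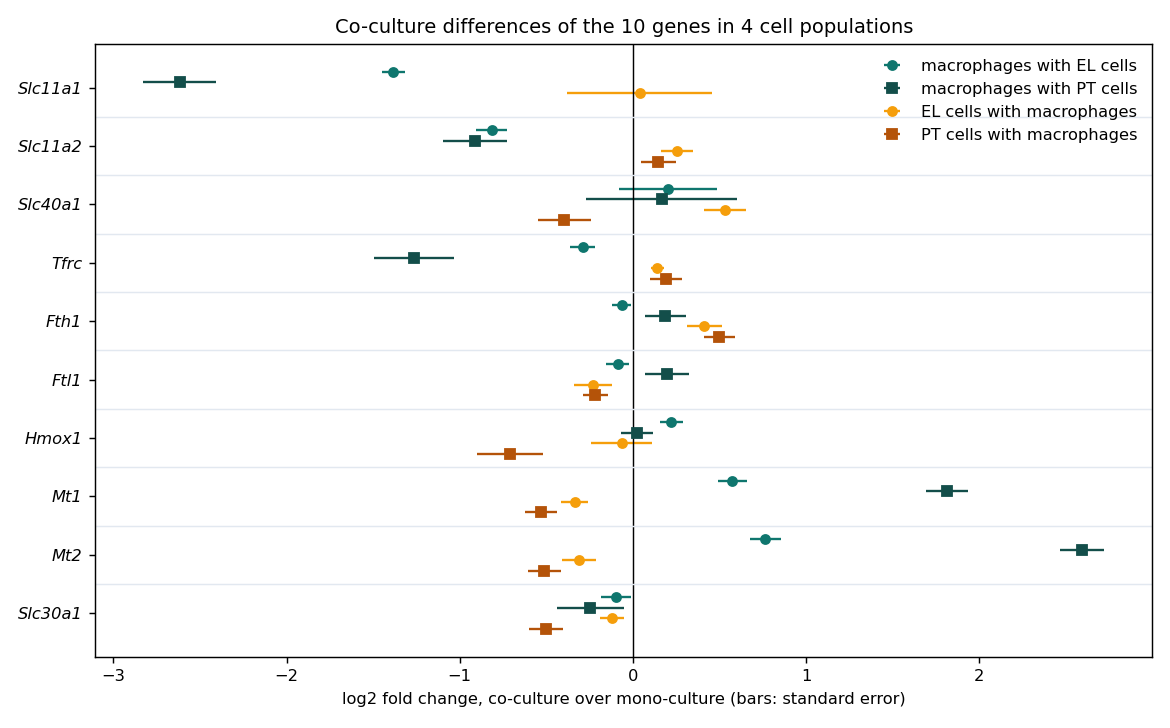
Log2 fold change of co-culture over mono-culture (bars are standard errors) for each of the 10 genes in macrophages and mammary cells of both experiments. Mt1 and Mt2 are above 0 in both macrophage comparisons and below 0 in both mammary comparisons, and Slc11a1 has no value in primary tumor cells, where it was too low to be tested.

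The genes most like Slc11a1 across the 10 macrophage libraries were Itgax (Pearson r = 0.996), which encodes the integrin CD11c, Clcn7 (0.995), a lysosomal chloride exchanger, and Abcc5 (0.991), an export pump. The correlation was taken over log2 CPM with each experiment centred on its mean, among 3863 genes. Those most like Mt2 were Dpysl2 (0.997), the glycolytic enzyme Pgam1 (0.996) and the mitophagy receptor Bnip3 (0.996). Mt1 came in place 91 for Mt2 (0.976), and Slc11a1 and Mt2 correlated at -0.961. The libraries of a group share their culture condition, so these values are a description. Slc11a1 and Mt2 were chosen as lower and higher in co-culture in these libraries, so their negative correlation follows from the choice.

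In mono-culture, macrophages and mammary cells differed widely in metal genes. Slc11a1 had 178 ± 0.731 other CPM in macrophages (SD, n = 2) against 0.652 ± 0.158 in early lesion cells (n = 3), and 103 ± 17.1 in macrophages against 0.208 ± 0.0809 in primary tumor cells (n = 3 each). Mt2 had 949 ± 132 in macrophages against 220.1 ± 4.04 in early lesion cells, and 574 ± 96.3 in macrophages against 149 ± 3.61 in primary tumor cells. These genes were chosen for their macrophage values and are given without a test.

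Of the other 8 genes, all 8 passed an adjusted p of 0.05 between macrophages and early lesion cells, 6 higher and 2 lower in macrophages, where 77.8% of 15696 genes passed (37.0% higher, 40.7% lower). Between macrophages and primary tumor cells 6 passed, 4 higher and 2 lower, where 78.9% of 13575 genes passed (36.7% higher, 42.3% lower). Ftl1 was higher in macrophages by 4.60 ± 0.09 on the log2 scale against early lesion cells (adjusted p = 4.29e-11) and by 4.43 ± 0.18 against primary tumor cells (adjusted p = 1.11e-08). Fth1 was higher by 3.76 ± 0.10 and 3.94 ± 0.17 (adjusted p = 1.04e-09 and 1.45e-08). The ferritin chains together took 3.602% ± 0.0138 of the other counts in macrophages against 0.283% ± 0.0194 in early lesion cells, and 5.48% ± 0.692 in macrophages against 0.407% ± 0.0249 in primary tumor cells.

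Hmox1 was higher in macrophages by 3.39 ± 0.07 against early lesion cells and 3.92 ± 0.14 against primary tumor cells (adjusted p = 8.36e-11 and 3.33e-09), and Mt1 by 3.07 ± 0.08 and 3.58 ± 0.14 (adjusted p = 2.81e-10 and 6.98e-09). The exporter and the transferrin receptor lay the other way. Slc40a1 had 2.06 ± 0.439 other CPM in macrophages against 33.1 ± 4.09 in early lesion cells, and 2.50 ± 0.625 in macrophages against 28.004 ± 2.93 in primary tumor cells, with log2 differences of -3.59 ± 0.17 and -3.19 ± 0.21 (adjusted p = 8.96e-08 and 3.61e-07). Tfrc had 51.8 ± 0.708 other CPM in macrophages against 196 ± 1.83 in early lesion cells, and 23.2 ± 6.60 in macrophages against 266 ± 29.4 in primary tumor cells, with log2 differences of -1.53 ± 0.05 and -3.21 ± 0.18 (adjusted p = 3.22e-09 and 8.68e-08). The log2 differences between the cell types come from the TMM scaling of each fit, not from the other CPM beside them. By other CPM, macrophages lay lower against mammary cells than by TMM, by more than the printed standard errors.

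The transporters Slc11a2 and Slc30a1 differed least between the cell types. Slc11a2 was higher by 0.33 ± 0.11 against early lesion cells (adjusted p = 0.0187), a call lost without replicate 2 of the mono-cultured macrophages (0.21, adjusted p = 0.192), and had -0.31 ± 0.13 against primary tumor cells (adjusted p = 0.0536, but 0.0284 with DESeq2). Slc30a1 was higher by 0.31 ± 0.07 against early lesion cells (adjusted p = 0.00298) and had 0.01 ± 0.16 against primary tumor cells (adjusted p = 0.967). On the scale of other CPM both lay slightly lower in macrophages than in early lesion cells, with 49.6 ± 4.85 against 51.7 ± 5.95 for Slc11a2 and 29.0 ± 1.52 against 30.6 ± 0.679 for Slc30a1, so their direction depended on the scaling.

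Per kilobase of transcript, Fth1 had the highest level in all 8 groups and Ftl1 the next. Their means were 21476 and 15005 other CPM per kb in macrophages with early lesion cells, and 2805 and 712 in early lesion cells with macrophages. Mt1 and Mt2 followed in all 8 groups, and in early lesion cells they overlapped, at 281 to 362 and 285 to 394 in co-culture. In macrophages Hmox1 and then Slc11a1 came next and Slc40a1 was last, at 0.612 to 0.743 on average. In mammary cells Tfrc came next, at 40.1 to 60.9 on average, and Slc11a1 was last, at 0.0901 to 0.282. Of neighbours in this order, Slc11a2 and Hmox1 overlapped in early lesion cells and in mono-cultured primary tumor cells, and Hmox1 and Slc40a1 in both kinds of co-cultured mammary cells. In macrophages of the primary tumor experiment Slc30a1 overlapped Slc11a2 in co-culture and Tfrc in mono-culture.

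**Figure D3:**
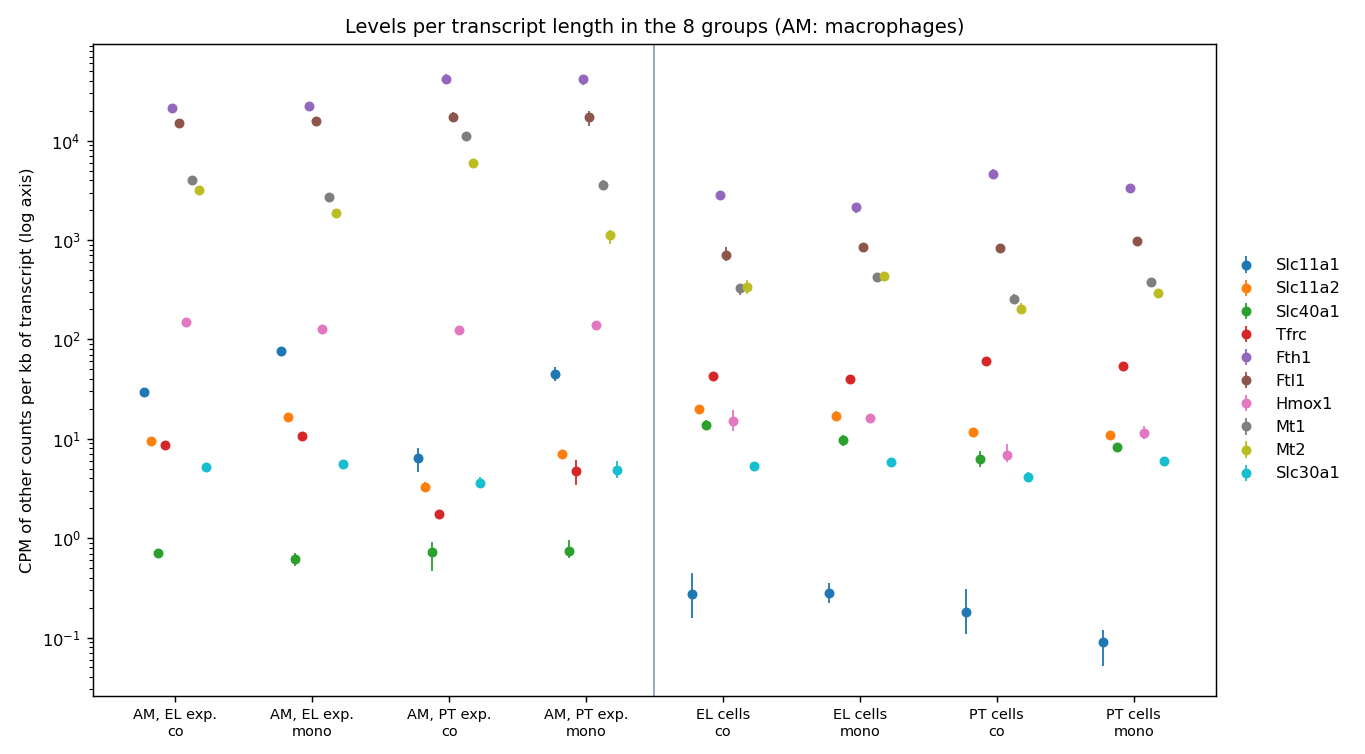
Other CPM per kilobase of transcript (log y axis) of the 10 genes in the 8 groups; points are group means and bars span the lowest to the highest library (EL, early lesion; PT, primary tumor). Fth1 and Ftl1 are on top in all 8 groups, Slc40a1 is lowest in the macrophage groups and Slc11a1 is lowest in the mammary groups.

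In early lesion cells 0 of the 10 genes passed with co-culture, where 0.510% of 14891 genes did (0.369% higher, 0.141% lower). At an unadjusted p under 0.05 there were 6 of the 10, beside 14.9% of all genes, and DESeq2 called 3, Slc40a1, Fth1 and Mt1, beside 3.40% of the genes to which it gave an adjusted p. The groups of the same 6 did not overlap, 4 higher and 2 lower, where 21.4% of all genes did not overlap (11.2% higher, 10.2% lower). Fth1 had 2313, 2652 and 2692 CPM in early lesion cells with macrophages, against 1672, 2132 and 1951 CPM in mono-culture, without overlap (0.41 ± 0.10, adjusted p = 0.151). Slc40a1 had 40.2, 51.5 and 45.8 CPM with macrophages, against 27.2, 35.1 and 32.7 CPM in mono-culture, without overlap (0.53 ± 0.12, adjusted p = 0.14).

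Among the importers, Tfrc had 203, 210.5 and 206 CPM in co-cultured early lesion cells, against 187, 187 and 188 CPM in mono-culture (0.14 ± 0.04, adjusted p = 0.18). Slc11a2 had 55.4, 58.6 and 63.1 CPM in co-culture, against 43.5, 49.98 and 54.9 CPM in mono-culture (0.25 ± 0.09, adjusted p = 0.268). All co-culture libraries lay above the mono-culture libraries for both, while the metallothioneins lay below. Mt1 had 191, 153 and 179.6 CPM in co-culture, against 215, 228 and 219 CPM in mono-culture (-0.34 ± 0.08, adjusted p = 0.142), and Mt2 had 194, 145 and 169.6 CPM, against 208, 209 and 214 CPM in mono-culture (-0.31 ± 0.10, adjusted p = 0.23). Groups overlapped for Ftl1 (-0.23 ± 0.11), Hmox1 (-0.07 ± 0.17), Slc30a1 (-0.12 ± 0.07) and Slc11a1 (0.04 ± 0.42), of which Slc11a1 had only 29, 14 and 7 counts in co-culture.

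Of the co-cultured early lesion libraries, replicate 1 lay nearest the mono-culture libraries for Fth1, Slc40a1, Mt1 and Mt2. Without it 7 of the 10 genes passed, Slc40a1, Tfrc and Fth1 higher and Ftl1, Hmox1, Mt1 and Mt2 lower, while of all 15148 genes tested then 10.6% passed, 719 higher and 893 lower. The 8 fibroblast markers summed to 3644 other CPM in this library, against 1159 and 1674 in the other co-culture libraries and 1113 to 2202 in mono-culture, and their part in the result was not tested.

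In primary tumor cells the ferritin heavy chain rose, and both metallothioneins and the zinc exporter fell with co-culture. Of the 9 genes tested 4 passed, 1 higher and 3 lower, where 1.67% of 13506 genes passed (0.659% higher, 1.01% lower). Fth1 had 3954, 3778 and 4453 CPM in primary tumor cells with macrophages, against 2903, 2624 and 3103 CPM in mono-culture. The groups did not overlap, and Fth1 rose by 0.50 ± 0.09 on the log2 scale (adjusted p = 0.0408).

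Mt1 had 150.0, 124 and 121 CPM in co-cultured primary tumor cells, against 207, 183 and 181 CPM in mono-culture, and fell by 0.53 ± 0.09 (adjusted p = 0.0393). Mt2 had 113, 88.4 and 88.9 CPM in co-culture, against 139, 137 and 139 CPM in mono-culture, and fell by 0.51 ± 0.09 (adjusted p = 0.0435). Slc30a1 had 23.1, 19.2 and 19.2 CPM in co-culture, against 31.2, 29.0 and 27.03 CPM in mono-culture, and fell by 0.50 ± 0.10 (adjusted p = 0.0497). All co-culture libraries were below all mono-culture libraries for these 3 genes. The macrophages of the same cultures held 43.6 times the Mt1 and 29.7 times the Mt2 of the primary tumor cells, and macrophage markers in primary tumor cells summed to 0.0839% of the macrophage level in co-culture and 0.0372% in mono-culture. The part of macrophage RNA in these values was not tested.

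All 4 calls came from the fit without the replicate number and lay near the threshold. Leaving out 1 library at a time kept 0 to 3 of them: 0 without replicate 2 or 3 of the co-culture or replicate 1 or 2 of the mono-culture, 1 (Fth1) without replicate 3 of the mono-culture, and 3 (Mt1, Mt2 and Slc30a1) without replicate 1 of the co-culture. The log2 fold changes ranged from 0.43 to 0.56 for Fth1, -0.64 to -0.47 for Mt1, -0.64 to -0.45 for Mt2 and -0.60 to -0.45 for Slc30a1. With the replicate number as a block, which pairs these libraries, 8 of the 9 passed, Fth1 and Tfrc higher and Slc40a1, Ftl1, Hmox1, Mt1, Mt2 and Slc30a1 lower, beside 1430 higher (10.6%) and 1411 lower (10.4%) of all genes.

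Of the remaining genes, Ftl1, Hmox1, Slc40a1 and Tfrc passed with the block. Ftl1 had 741, 762 and 778 CPM in co-cultured primary tumor cells, against 936, 919 and 798 CPM in mono-culture, without overlap (-0.22 ± 0.07, adjusted p = 0.156, and 0.0146 with the block). Hmox1 had 13.05, 8.59 and 8.98 CPM in co-culture, against 16.6, 19.7 and 14.0 CPM in mono-culture, without overlap (-0.71 ± 0.19, adjusted p = 0.111, and 0.0125 with the block). DESeq2 and the fit of all 4 groups also called Hmox1 (adjusted p = 0.0132 and 0.0426).

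The iron exporter Slc40a1 had 23.8, 18.9 and 16.3 CPM in co-cultured primary tumor cells, against 28.9, 26.4 and 22.5 CPM in mono-culture, with overlap (-0.40 ± 0.15, adjusted p = 0.213, and 0.000942 with the block). Tfrc had 252, 284 and 304 CPM in co-culture, against 219, 257 and 261 CPM in mono-culture, with overlap (0.19 ± 0.09, adjusted p = 0.299, and 0.0069 with the block). Slc11a2 had 0.15 ± 0.10 (adjusted p = 0.452), and Slc11a1, with 8, 5 and 16 counts in co-culture against 6, 7 and 3 counts in mono-culture, was too low to be tested. Of the 9 genes, 6 did not overlap, 1 higher and 5 lower, where 25.6% of all genes did not (12.3% higher, 13.3% lower).

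The heavy and light chains of ferritin were also set against each other, without a test. The ratio of Fth1 to Ftl1 counts was 2.95, 4.49 and 4.17 in early lesion cells with macrophages, against 1.97, 2.70 and 2.68 in mono-culture, and 5.33, 4.96 and 5.72 in primary tumor cells with macrophages, against 3.10, 2.86 and 3.89 in mono-culture. Every co-culture library was above every mono-culture library of its kind. In macrophages the ratio overlapped between the groups, at 1.42 and 1.33 with early lesion cells against 1.27 and 1.44 in mono-culture, and 2.16 to 2.38 with primary tumor cells against 2.18 to 2.45 in mono-culture.

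**Figure D4:**
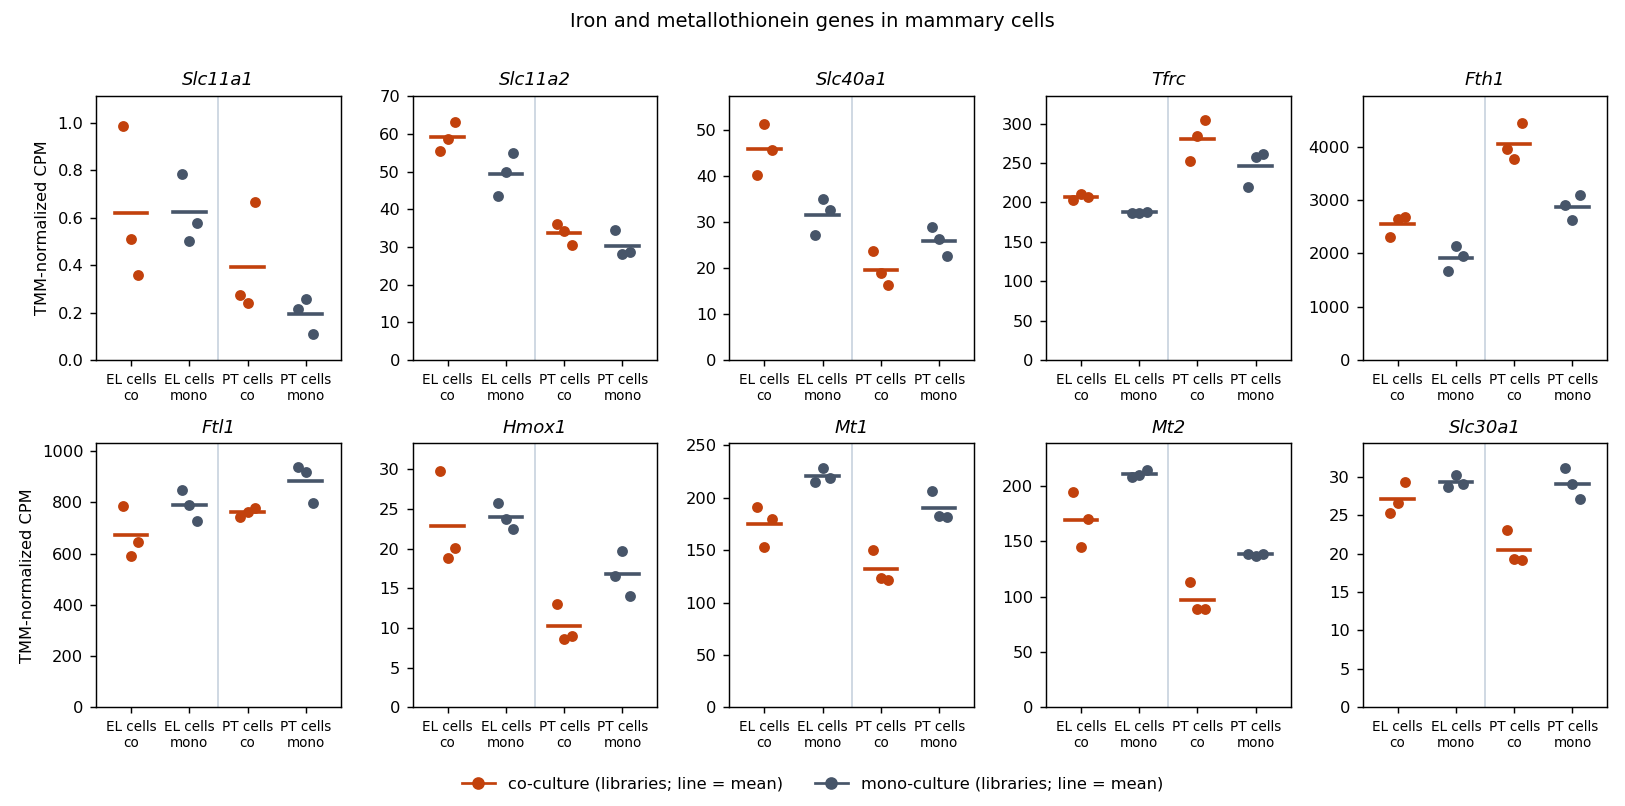
TMM-normalized CPM (y axes, from 0) of the 10 genes in early lesion and primary tumor cells in co-culture with macrophages and in mono-culture; points are libraries and lines are means. Fth1 is higher and Mt1 and Mt2 are lower in every co-culture library than in every mono-culture library of the same cells, and Slc40a1 is higher in every co-culture library of early lesion cells but overlaps in primary tumor cells.

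Whether the 2 kinds of mammary cells responded differently was tested as an interaction over their 4 groups, early lesion minus primary tumor. None of the 10 genes passed (0 calls by edgeR), where 0.137% of 15284 genes did (0.0981% higher, 0.0393% lower), with 3 at an unadjusted p under 0.05, beside 14.5% of all genes, and 1, Slc40a1, called by DESeq2, beside 2.41%. With the replicate number as a block within each kind of cell 2 passed, Slc40a1 (adjusted p = 9.21e-05) and Slc30a1 (adjusted p = 0.033), beside 7.39% of all genes. Libraries that share a number deviated together from their group means in primary tumor cells. Whether they did so in early lesion cells is unclear. The difference was 0.92 ± 0.21 for Slc40a1 (adjusted p = 0.121, and 0.00571 with DESeq2), 0.38 ± 0.12 for Slc30a1 (adjusted p = 0.202) and 0.64 ± 0.28 for Hmox1 (adjusted p = 0.329). Those of Fth1, Mt1 and Mt2 were -0.09 ± 0.14, 0.19 ± 0.13 and 0.20 ± 0.15, each within 2 standard errors of 0.

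A further 78 genes in 6 lists set these values beside their pathways: iron uptake and trafficking (22 genes), iron regulation (9), heme synthesis and breakdown (11), mitochondrial iron and iron-sulfur clusters (8), zinc transport and metallothionein control (21) and copper transport (7). In early lesion cells 0 of the 71 tested passed by edgeR, with 15 at an unadjusted p under 0.05 (14.9% of all genes) and 4 called by DESeq2 (3.40% of all genes), and their median log2 fold change was 0.04 beside 0.00 over all genes. Lcn2, or lipocalin 2, which binds iron-carrying siderophores, had 4535 ± 962 CPM with macrophages against 3829.9 ± 749 CPM in mono-culture (SD, n = 3 each; adjusted p = 0.619 by edgeR). The ferroxidase ceruloplasmin, Cp, had 2399.9 ± 345 CPM against 1813 ± 170.1 CPM in mono-culture (adjusted p = 0.207 by edgeR). The log2 fold changes of the iron regulatory proteins Aco1 and Ireb2 were 0.06 ± 0.05 and -0.01 ± 0.05. Those of Cpox and Urod in heme synthesis, Slc25a37 in mitochondria, the zinc transporters Slc39a1 and Slc39a7, and Slc31a1 and Sod1 of copper handling ran from -0.25 to 0.17.

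In primary tumor cells 1 of the 72 tested passed, 1.39% beside 1.67% of all genes. Steap3, an endosomal reductase of ferric iron, had 37.9, 33.1 and 38.9 CPM with macrophages, against 26.4, 25.4 and 26.4 CPM in mono-culture, without overlap. It rose by 0.49 ± 0.08 (adjusted p = 0.0286), and the call was lost when any 1 of the 6 libraries was left out (0.45 to 0.56). With the replicate block 16 of the 72 passed, 10 higher and 6 lower, where 2841 of all 13506 genes did. Aco1 and Ireb2 had 0.10 ± 0.05 and -0.14 ± 0.05, and Cpox, Urod, Glrx5, Slc39a1, Slc39a7, Sod1 and Slc31a1 ran from -0.07 to 0.16.

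In macrophages more of these genes passed. The lists were chosen with earlier results of these data known, so no excess over all genes is read from the shares. With early lesion cells it was 28 of 69, 12 higher and 16 lower, 40.6% beside 18.3% of all genes. Beside primary tumor cells it was 25 of 60, 13 higher and 12 lower, 41.7% beside 30.6%. In both experiments 16 passed, which is 57.1% of the 28 and 64.0% of the 25, with 6 higher in both, 9 lower in both and Sod1 in opposite directions. Over all genes 1287 passed in both, 11.7% of the 10977 tested in both, which is 50.1% of those called with early lesion cells and 37.8% of those called with primary tumor cells, and 93.5% of them had the same direction. The experiments share no library.

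Iron uptake and trafficking moved in both directions. In macrophages with early lesion cells 7 were higher and 4 lower of 19, 57.9% beside 18.3% of all genes. With primary tumor cells 3 were higher and 3 lower of 14, 42.9% beside 30.6% of all genes. Lcn2 had 29.1 and 17.8 CPM with early lesion cells, against 0.595 and 0.647 CPM in mono-culture (adjusted p = 0.00139). It had 450, 172 and 381 counts with primary tumor cells, against 1, 10 and 4 counts in mono-culture (adjusted p = 9.06e-05). Cp had 18.4 and 11.8 CPM with early lesion cells, against 1.95 and 1.94 CPM in mono-culture, a rise of 2.96 ± 0.24 (adjusted p = 7.87e-05). None of these groups overlapped. With primary tumor cells Cp had 3.49 ± 2.02 CPM against 1.54 ± 0.314 CPM in mono-culture (SD), with overlap (edgeR, adjusted p = 0.049). Mammary cells held 190.1 and 160.0 times the Lcn2 and 156 and 92.9 times the Cp of the macrophages grown with them, in the early lesion and primary tumor experiments, and epithelial markers in macrophages were also higher in co-culture, as given above. Their part in both rises was not tested.

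The receptor Lrp1, which takes up heme bound to hemopexin, rose by 0.76 ± 0.13 in macrophages with early lesion cells (adjusted p = 0.0121, and 0.135 in a fit of all 4 groups). Steap3 had 2.78, 2.67 and 4.08 CPM with primary tumor cells, against 10.9, 8.64 and 6.71 CPM in mono-culture, and fell by 1.45 ± 0.21 (adjusted p = 0.000209). Flvcr1, a membrane transporter listed in the tables under an older symbol, fell by 1.51 ± 0.27 there (adjusted p = 0.00144). With early lesion cells Steap3 and Flvcr1 also fell, with log2 fold changes of -0.41 and -0.62 (edgeR, adjusted p = 0.00165 and 0.000179).

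In iron regulation the genes that passed were all higher, 3 of 7 in macrophages with early lesion cells and 3 of 7 with primary tumor cells. That was 42.9% in each, beside 18.3% and 30.6% of all genes in either direction. Fbxl5, the iron-sensing part of the ligase that marks Ireb2 for decay, had 472 and 449 CPM with early lesion cells, against 261 and 276 CPM in mono-culture, and rose by 0.78 ± 0.07 (adjusted p = 1.02e-05). It had 45.7, 48.3 and 41.4 CPM with primary tumor cells, against 42.7, 33.2 and 30.3 CPM in mono-culture, with overlap, and rose by 0.35 ± 0.12 (adjusted p = 0.0436). That call was lost with DESeq2 (adjusted p = 0.0523) and without any 1 library other than replicate 1 of the mono-culture (0.25 to 0.49 over the 6). Epas1, which encodes the hypoxia factor HIF-2α, rose by 0.73 ± 0.07 and 0.51 ± 0.12 (adjusted p = 4.18e-05 and 0.00456), and the hemochromatosis gene Hfe rose by 0.68 ± 0.09 with early lesion cells (adjusted p = 0.00026). Hfe rose with primary tumor cells too, by 1.05 ± 0.25 (edgeR, adjusted p = 0.00647), at 2.45 CPM against 1.20 CPM in mono-culture.

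Of 11 heme genes, 1 was higher and 3 lower in macrophages with early lesion cells, and 3 were higher and 3 lower with primary tumor cells. These were 36.4% and 54.5%, beside 18.3% and 30.6% of all genes. The 6 erythroid markers summed to 26.8 and 110 other CPM in macrophages with early lesion cells, against 10.2 and 17.6 in mono-culture, and the 8 fibroblast markers to 59.4 and 73.0, against 26.4 and 54.4 in mono-culture. With primary tumor cells both sums overlapped, at 6.58 to 11.6 against 4.08 to 25.7 in mono-culture for erythroid and 29.5 to 61.6 against 14.2 to 32.5 in mono-culture for fibroblast markers. The part of such cells in the heme and iron values was not tested. Alas1, the first enzyme of heme synthesis, had 138 and 131 CPM with early lesion cells, against 182 and 178 CPM in mono-culture, and 27.01, 30.6 and 27.2 CPM with primary tumor cells, against 47.3, 52.5 and 48.5 CPM in mono-culture. It fell without overlap, by 0.42 ± 0.06 and 0.81 ± 0.09 on the log2 scale (adjusted p = 0.000771 and 2.51e-05). Alad, the next enzyme, fell by 0.37 ± 0.09 and 0.92 ± 0.17 (adjusted p = 0.016 and 0.000985). Of the biliverdin reductases, Blvra fell by 0.24 ± 0.07 with early lesion cells (adjusted p = 0.025) and Blvrb rose by 0.82 ± 0.15 with primary tumor cells (adjusted p = 0.00113). With early lesion cells the calls of Alad and Blvra were lost without replicate 1 of the co-culture (-0.32 and -0.23) or of the mono-culture (-0.27 and -0.19).

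Of 8 genes of mitochondrial iron and iron-sulfur clusters, 3 were lower with early lesion cells, while 2 were higher and 1 lower with primary tumor cells. That was 37.5% in each, beside 18.3% and 30.6% of all genes. Slc25a37, the mitochondrial iron importer mitoferrin 1, had 45.5 and 49.0 CPM with early lesion cells, against 81.4 and 84.8 CPM in mono-culture, and 2.73, 1.99 and 2.86 CPM with primary tumor cells, against 9.27, 8.83 and 7.94 CPM in mono-culture. It fell without overlap, by 0.82 ± 0.07 and 1.77 ± 0.17 (adjusted p = 1.3e-05 and 5.23e-06). The scaffold Iscu fell by 0.36 ± 0.08 with early lesion cells (adjusted p = 0.0124), and Hscb and Nfs1, which act in cluster assembly, rose by 1.00 ± 0.17 and 0.44 ± 0.12 with primary tumor cells (adjusted p = 0.000498 and 0.0145). The call of Nfs1 was lost without replicate 1 of the co-culture (0.37).

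Zinc transport had 1 gene higher and 3 lower of 17 with early lesion cells, 23.5% beside 18.3% of all genes. With primary tumor cells it had 4 lower of 14, 28.6% beside 30.6% of all genes. Slc39a2, the zinc importer ZIP2, had 131 and 145 CPM with early lesion cells, against 233 and 247 CPM in mono-culture, and 5.55, 6.97 and 8.01 CPM with primary tumor cells, against 18.6, 15.9 and 14.5 CPM in mono-culture. It fell without overlap, by 0.79 ± 0.07 and 1.25 ± 0.15 (adjusted p = 1.77e-05 and 2.99e-05). Among its relatives, Slc39a13 fell by 0.30 ± 0.08 and Slc39a1 rose by 0.28 ± 0.07 with early lesion cells (adjusted p = 0.0213 and 0.0153), and both calls were lost without replicate 1 of the co-culture (-0.26 and 0.23), that of Slc39a1 also without replicate 1 of the mono-culture (0.22). Slc39a13 was also lower with primary tumor cells, with a log2 fold change of -0.61 ± 0.18 (edgeR, adjusted p = 0.0212). Slc30a5, which carries zinc into the secretory pathway, fell by 0.63 ± 0.19 with primary tumor cells (adjusted p = 0.0213), a call lost without replicate 1 or 3 of the co-culture or replicate 1 of the mono-culture (-0.52, -0.61 and -0.48).

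Of 7 copper genes 3 were lower with early lesion cells, 42.9% beside 18.3% of all genes in either direction. Of 6 tested with primary tumor cells 3 passed, 2 higher and 1 lower, where 30.6% of all genes passed. Slc31a2, a relative of the copper importer Slc31a1, fell by 0.74 ± 0.06 and 1.10 ± 0.14 (adjusted p = 1.29e-05 and 4.43e-05), and Slc31a1 fell by 0.25 ± 0.06 with early lesion cells (adjusted p = 0.0171), a call lost without replicate 1 or 2 of the co-culture (-0.26 and -0.24). The copper and zinc superoxide dismutase Sod1 had 51.9 and 53.2 CPM with early lesion cells, against 67.1 and 61.2 CPM in mono-culture, and fell by 0.29 ± 0.07 (adjusted p = 0.0182), a call lost without replicate 1 of the co-culture (-0.27) or of the mono-culture (-0.22). It had 12.99, 12.8 and 12.4 CPM with primary tumor cells, against 7.199, 6.90 and 8.33 CPM in mono-culture, and rose by 0.76 ± 0.12 without overlap (adjusted p = 0.000381). Mammary cells held 1.77 times (early lesion) and 2.70 times (primary tumor) the Sod1 of the macrophages grown with them.

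Other settings also ended calls in macrophages with early lesion cells. In the fit of all 4 groups Blvra, Iscu, Slc39a13, Sod1 and Slc31a1 had adjusted p of 0.219, 0.0619, 0.143, 0.0604 and 0.0659, beside that of Lrp1 given above. With DESeq2 Slc39a13 had 0.0927.

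The difference of the macrophage responses, early lesion minus primary tumor experiment, was tested after these signs were seen. It was -1.04 ± 0.15 for Sod1 (adjusted p = 0.000547) and passed for 12 of 68 genes of the lists, 3 higher and 9 lower, 17.6% beside 10.9% of all genes (5.25% higher, 5.70% lower). Leaving out 1 library at a time gave 6 to 19 of them, with 6 without replicate 1 of the macrophages with early lesion cells or of their mono-culture, 7 without replicate 2 of either, and 19 without replicate 3 of the mono-cultured macrophages of the primary tumor experiment.

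**Figure D5:**
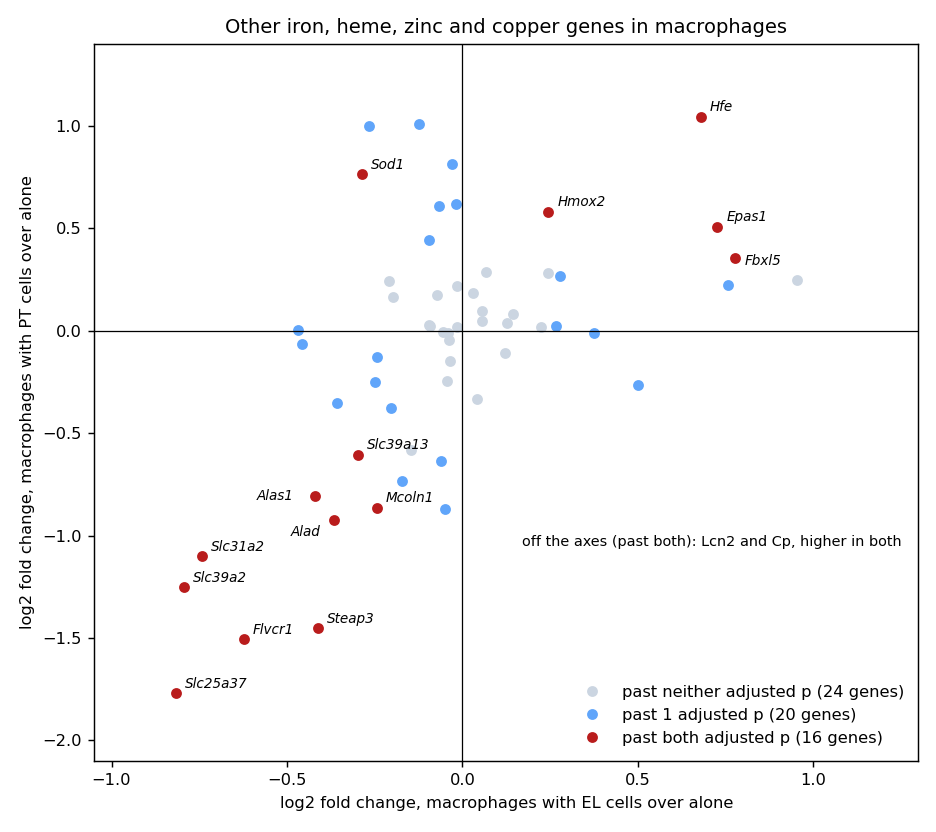
Log2 fold change of co-culture over mono-culture in macrophages with early lesion cells (x axis) and with primary tumor cells (y axis) for the 60 other iron, heme, zinc and copper genes tested in both experiments (EL, early lesion; PT, primary tumor). Of the 16 genes past both adjusted p, 9 are lower in both and 6 are higher in both, among them Lcn2 and Cp, which lie off the axes, and Sod1 is lower with early lesion cells and higher with primary tumor cells. With primary tumor cells the co-culture and mono-culture libraries of Cp and Fbxl5 overlap.

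Between mono-cultured macrophages and mammary cells, 62 of 73 genes of the lists passed against early lesion cells (84.9%) and 64 of 71 against primary tumor cells (90.1%), beside the 77.8% and 78.9% of all genes given above. The values against both kinds of mammary cells are of the TMM scaling, by which macrophages lay higher than by other CPM. The size of small differences depends on that scaling. Macrophages had 0.726 ± 0.0483 CPM of Lcn2 (SD, n = 2) against 3475 ± 679.8 in early lesion cells (n = 3), 2.28 ± 0.00502 CPM of Cp against 1645 ± 154, and 0.367 ± 0.110 CPM of the reductase Steap4 against 86.9 ± 13.2. They were lower than early lesion cells in Ireb2, by a log2 difference of -0.65 ± 0.06, and higher in Hfe (3.09 ± 0.14) and Fbxl5 (1.67 ± 0.05), and in Blvra, Alas1 and Blvrb of heme metabolism (3.48 ± 0.07, 2.94 ± 0.05 and 2.15 ± 0.08). The cluster assembly genes Hscb and Iscu were higher by 2.22 ± 0.13 and 1.73 ± 0.07. Zinc transporters split, with 280.5 ± 13.3 CPM of Slc39a2 in macrophages against 0.763 ± 0.0887 in early lesion cells, while Slc39a4 had 0.875 ± 0.161 against 91.5 ± 9.37 and Slc30a4 had 1.03 ± 0.0172 against 55.3 ± 3.06. Slc31a2, Slc31a1 and the copper chaperone Ccs were higher by 3.29 ± 0.07, 0.88 ± 0.06 and 1.00 ± 0.06.

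Against primary tumor cells macrophages had 0.473 ± 0.429 CPM of Lcn2 against 3794 ± 263, 3.83 ± 0.799 CPM of Cp against 552 ± 143, and 0.0388 ± 0.0672 CPM of Steap4 against 16.6 ± 5.00 (SD, n = 3 each). They were higher in the regulators Fbxl5, Bach1 and Nfe2l2 (1.52 ± 0.13, 1.12 ± 0.09 and 0.90 ± 0.10), in Alas1, Blvra and Fech (2.98 ± 0.10, 2.66 ± 0.11 and 1.70 ± 0.10) and in Slc25a37, Iscu and Hscb (1.83 ± 0.12, 1.69 ± 0.13 and 1.14 ± 0.19). Slc39a2 had 40.7 ± 5.02 CPM in macrophages against 0.168 ± 0.0950 in primary tumor cells, and Slc39a4 had 0.0682 ± 0.0607 against 19.1 ± 1.59. Slc30a2 had 0 counts in all 3 macrophage libraries, against 6.55 ± 1.96 CPM. Slc31a2 was higher by 2.66 ± 0.16, while Sod1 and Ccs differed by -1.79 ± 0.11 and -1.68 ± 0.17.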

How the data were processed

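RNA was measured by bulk sequencing in 22 libraries of 8 groups, taken from the labels. The deposited values are counts per gene symbol, raw per the labels, in 1 table per experiment. Per the submitters' processing notes, bcl2fastq 2.17 and build mm10 were used, while for the strand setting, annotation, counter and aligner the sources used here give nothing. All 48 values of 1000000 or more end in 0, and 27 symbols had become dates. Totals were 19.7 to 43.7 M counts. The members and lists were chosen with earlier results of these data known.

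Each comparison was fitted on all genes with edgeR 4.0.16 in R 4.3.3 (filterByExpr, TMM, robust quasi-likelihood F test, two-sided), with p-values adjusted by Benjamini-Hochberg across every tested gene and a threshold of 0.05. Fits were also run on simulated counts without replicate pairing, and the outcome is not reported here. Other CPM leaves out the 13 mitochondrially encoded genes and Grip2. Transcript lengths are those of the GENCODE M21 transcripts numbered 201. Sequences are from RefSeq and GENCODE transcripts. Named were the 10 genes and, per list and comparison, up to 3 passing genes of the largest change with at least 5 CPM in the higher group, or the 2 most abundant where none passed; some that the rule names are not reported here. The most alike genes needed at least 10 CPM in both experiments. Alternatives were no filter, another normalization, DESeq2 1.42.0, a replicate block, all 4 groups in 1 fit, and leaving out each library or the mitochondrially encoded genes and Grip2. The comparison of the macrophage responses was added after seeing the data.

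In primary tumor cells, co-culture and mono-culture libraries that share a replicate number deviated together from their group means (r = 0.461, 0.350 and 0.468). The block was read as pairing them there, while the main fit left the numbers out. In early lesion cells r was 0.287, 0.227 and 0.0612 for shared numbers and -0.287 to 0.0911 for different ones. Pairing is unclear in early lesion cells. The pairing comes from the data, as the labels give none.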

Additional observations from a re-analysis of the deposited data

Results flagged for a closer look

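In 12 genes of the metal lists the macrophage response to co-culture differed between the experiments by a test of the difference itself (edgeR interaction, early lesion minus primary tumor experiment, log2, adjusted over all genes). Of these 3 were positive, Steap3 at 1.05 (adjusted p = 0.0129), Mcoln1 at 0.636 (0.0142) and Slc25a37 at 0.966 (0.0036), all of which were lower with co-culture in both experiments. The other 9 were negative: Slc48a1 at -0.458 (0.0291), Ncoa4 at -0.439 (0.0419), Pcbp2 at -0.624 (0.0068), Urod at -0.657 (0.0410), Blvrb at -0.835 (0.0052), Nfs1 at -0.525 (0.0375), Hscb at -1.25 (0.0012), Ccs at -1.11 (0.0052) and Sod1 at -1.04 (0.000547). Over the 10 fits that left out 1 library, the calls of Ncoa4 and Urod were lost in 8, those of Slc48a1 and Nfs1 in 6 and those of Steap3 and Mcoln1 in 3, and the other 6 genes kept theirs in all 10. The macrophages of the primary tumor experiment also had 65.7 to 78.6% mitochondrially encoded counts, and experiment and this share cannot be told apart.

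In mammary cells 2 of 71 metal genes (2.82%) lay in opposite directions with no overlap of the groups in either kind of cell, as did 172 of all 13083 genes tested in both (1.31%). Fech, the last enzyme of heme synthesis, had 0.138 in early lesion cells and -0.173 in primary tumor cells, and the test of the difference gave 0.31 ± 0.07 (edgeR, adjusted p = 0.128). Glrx5, a glutaredoxin of iron-sulfur cluster assembly, had -0.184 in early lesion cells and 0.164 in primary tumor cells, with a difference of -0.35 ± 0.08 (edgeR, adjusted p = 0.128).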

How the results depend on the processing

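Of the single-gene values under the alternatives, 1482 kept direction and side of the threshold, 105 lost the call, 37 gained one, 32 changed sign and 7 moved beyond their spread. Of the counts of called genes under the alternatives, 94 were classed as the same and 31 as moved. Of the 10 genes, early lesion cells had 3 calls with the replicate block and 3 with DESeq2, and 0 to 7 without 1 library. Primary tumor cells had 2 in the fit of all 4 groups, 8 with the block and 0 to 3 without 1 library. The mammary difference had 2 with the block, 1 with DESeq2 and 0 to 1 without 1 library. Of the other metal genes, early lesion cells had 2 in the fit of all 4 groups, 6 with the block, 4 with DESeq2 and 0 to 7 without 1 library, and primary tumor cells had 0, 16 and 2 in these fits and 0 without any 1 library. The macrophage difference had 6 to 19 without 1 library. Over all genes the calls moved too: in early lesion cells 0.907% passed in the fit of all 4 groups, 3.26% with the block, 3.40% with DESeq2 and 0.00 to 10.6% without 1 library, in primary tumor cells 1.14% in the fit of all 4 groups, 10.6% higher and 10.4% lower with the block, 5.49% with DESeq2 and 0.0291 to 1.18% without 1 library, in the mammary difference 7.39% with the block, 2.41% with DESeq2 and 0.0572 to 1.18% without 1 library, and in the macrophage difference 3.93 to 13.8% without 1 library.

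Signs changed where values lay near 0. In early lesion cells Slc11a1 had -0.0317 with the block and -0.48 to 0.28 without 1 library, Hmox1 -0.31 to 0.0611, Ireb2 -0.052 to 0.016 and Sod1 -0.0775 to 0.0289. In primary tumor cells Cpox had -0.099 to 0.0587 and Urod -0.0149 to 0.0289. For the mammary difference Tfrc had -0.13 to 0.0285, Fth1 -0.17 to 0.0038 and Ftl1 -0.13 to 0.0797. Slc30a1 in macrophages over primary tumor cells had -0.186 with no filter, -0.0638 without mitochondrially encoded genes and Grip2, -0.00918 in the fit of all 4 groups, -0.000872 with the block, -0.0644 with DESeq2 and -0.193 to 0.109 without 1 library. The cause was not tested. With 2 libraries a group, leaving 1 out assumes that the lone library varies like the others. Numbers did not pair the libraries of macrophages, so there the block shares only a number. In early lesion cells it is unclear whether the numbers pair the libraries. Thin counts limit the macrophages of the primary tumor experiment.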
